A study of Saccharomyces cerevisiae with 13 samples.

Results

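Ribosome biogenesis in budding yeast was followed here through 51 genes for nucleolar factors that process ribosomal RNA and assemble the ribosomal subunits, among 6205 open reading frames on the arrays. The 51 were chosen by name and known function, as open reading frames of the NOP, UTP, RRP, IMP and RPF families with DEAD-box helicases and other nucleolar proteins, a rule that uses no measured value, although earlier results of these data were known when the set was drawn up. All 51 were matched to a gene symbol through RefSeq's gene table, and all 51 had a usable value on each of the 13 arrays.

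Ribosomes are built in the nucleolus, where RNA polymerase I transcribes a long precursor RNA that small nucleolar ribonucleoproteins (snoRNPs) modify, the small-subunit processome folds and cleaves, and further factors turn into the 40S and 60S subunits. Most of these factors leave the particle before it takes part in translation. In budding yeast their genes are known as a regulon that is transcribed together, is high in rich medium and growing cells, and is controlled by growth signals through regulators such as Sfp1, Stb3, Dot6 and Tod6.

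The study followed *Saccharomyces cerevisiae* through 2 cell cycles after release from a pheromone arrest. Alpha factor, the mating pheromone that stops responsive cells in G1, was used for the arrest, and the cells were then moved to YEPD, a rich glucose medium, and sampled at 0, 10, 20, 30, 40, 50, 60, 70, 80, 90, 100, 110 and 120 min. Total RNA of each time point, labelled with Cy5, was hybridised on 1 two-colour array against Cy3-labelled material of an asynchronous culture grown overnight in YEPD to an OD of 0.6, so each time point has a single array and none has a replicate. No strain or genotype is named in the labels used here, and the yeast culture was measured in bulk, where fewer cells of one kind and less RNA per cell cannot be told apart.

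Every value below is a log2 ratio of the time point over the asynchronous culture unless it is called a difference, so a value below 0 means less transcript than in the asynchronous culture. The direction of the ratio was not given in the sources used here. It was taken as likely because FUS1, a gene of cell fusion that pheromone induces, stood at 3.23 at 0 min. With the opposite direction all signs below would turn. The pheromone receptor gene STE2 was also high in the arrest, at 1.40. The G1 cyclin gene CLN2 was high at 20 min (0.70) and 80 min (0.75), the histone gene HTA1 at 30 min (0.74) and 90 min (0.53), and the mitotic cyclin gene CLB2 at 50 min (0.80) and 120 min (0.48), while the cyclin-dependent kinase inhibitor gene SIC1 reached 0.90 at 70 min. Each array gave 6050 to 6201 usable values, with medians between -0.01 and 0.02 over all genes. Over genes, the SD of the log2 ratios was 0.63 on the 10 min array, the widest of the 13, and 0.31 on the 110 min array. Pairs of arrays correlated at r of 0.12 to 0.80 over genes, none below 0. File stamps put the 0 to 30 min arrays in one set and the 40 to 120 min arrays in another, so array set and time since release cannot be told apart.

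Nearly all of the 51 genes shared one time course, with NOP13 as the main exception. Their transcripts were close to the asynchronous level in the arrested culture, low from 10 to 30 min after release, partly recovered at 40 and 50 min, low again at 70 and 80 min and higher once more around 100 min. The median over the 51 genes was -0.24 at 0 min, -1.01 at 10 min, -0.81 at 20 min, -0.78 at 30 min, -0.44 at 40 min, -0.49 at 50 min, -0.66 at 60 min, -0.67 at 70 min, -0.79 at 80 min, -0.60 at 90 min, -0.48 at 100 min, -0.57 at 110 min and -0.60 at 120 min. In fold terms the median gene was 1.18-fold below the asynchronous culture at 0 min and 2.02-fold below it at 10 min. Over all genes tested the median lay between -0.01 and 0.02 at every time point.

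Most of the 51 genes stayed under the asynchronous level throughout. The ratio was below 0 on all 13 arrays for 43 of the 51 genes, against 7.95% of the 5871 genes with a value on every array. The other 8 were DBP9, NOP13, RRP5, SPB4, UTP8, UTP10, UTP15 and UTP22, and apart from NOP13 each had only 1 array above 0. For DBP9, UTP10, UTP15 and UTP22 that array was 0 min.

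**Figure D1:**
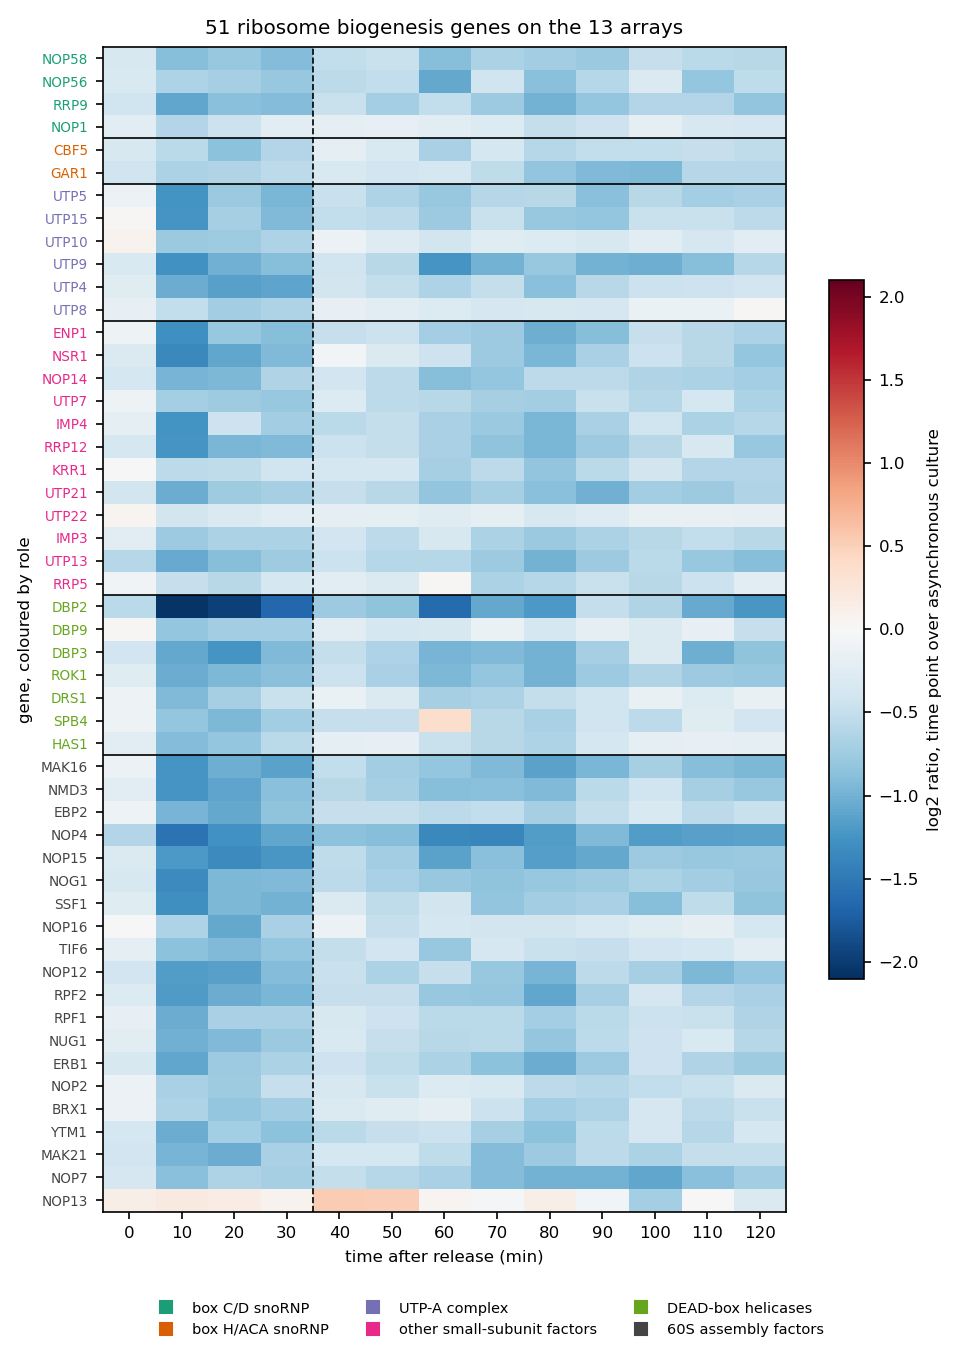
Heat map of the log2 ratio of the time point over the asynchronous culture for the 51 genes (rows, grouped and coloured by role) on the 13 arrays (columns, min after release). Blue is below 0, red above 0, and the dashed line separates the 2 array sets. The 10 to 30 min columns are the bluest, with DBP2 at -2.06 at 10 min, and NOP13 in the bottom row is the only gene with red cells on most of the early arrays.

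The low level after release was common to nearly every gene. The 0 min value lay above each of the 10, 20 and 30 min values in 50 of the 51 genes, against 34.6% of all genes, and NOP13 was the exception. The 10, 20 and 30 min values each lay below both the 40 and the 50 min value in 50 of the 51 genes, against 27.4% of all genes, and IMP4 was the exception. The lowest of the 13 values fell at 10, 20 or 30 min in 44 of the 51 genes (33.4% of all genes), and the highest at 0 min in 35 (14.2% of all genes). These patterns were put together after the values had been seen, so they are given as a description with no test.

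On the values as deposited, the second low was shallower than the first. The mean of 10, 20 and 30 min minus that of 40 and 50 min was negative in 51 of the 51 genes. Over all genes 56.5% were negative. The median of this difference was -0.42 in the 51 genes and -0.04 over all genes. The mean of 70 and 80 min minus that of 100 and 110 min was negative in 43 of the 51. Over all genes 53.4% were negative. The median of this second difference was -0.17 in the 51 genes and -0.02 over all genes. The 80 min value was below both the 50 and the 100 min value in 43 genes (42.3% of all genes).

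The 10 min array also had the widest spread over all genes, but the whole first array set was wide. The SD was 0.46, 0.63, 0.50 and 0.45 at 0, 10, 20 and 30 min. On the 40 to 120 min arrays it lay between 0.31 and 0.43. The part of this spread in the depth of the first low, and in the rise at 40 min, was not tested. With all arrays brought to the same distribution by quantile normalization, the median of the 51 genes was -0.27 at 0 min, -0.63 at 10 min, -0.65 at 20 min, -0.69 at 30 min, -0.56 at 40 min, -0.58 at 50 min, -0.59 at 60 min, -0.78 at 70 min, -0.80 at 80 min, -0.67 at 90 min, -0.56 at 100 min, -0.63 at 110 min and -0.68 at 120 min. On that scale the order of the lows turned: 70 and 80 min lay below each of 10, 20 and 30 min, and 10 min no longer stood below 20 and 30 min. The 90 and 120 min medians also lay below those of 10 and 20 min.

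**Figure D2:**
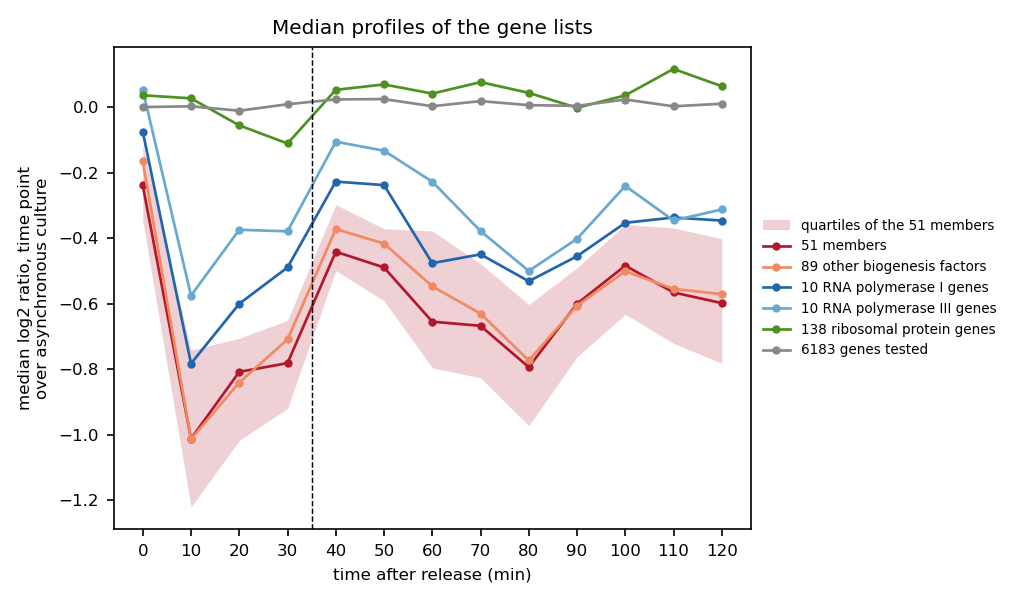
Median log2 ratio of the time point over the asynchronous culture (vertical axis) against time after release in min (horizontal axis) for the 51 genes with their quartiles (shaded), 89 other biogenesis factors, 10 RNA polymerase I genes, 10 RNA polymerase III genes, 138 ribosomal protein genes and all 6183 genes tested. The dashed line separates the 2 array sets. The 51 genes and the 89 other factors both have a median of -1.01 at 10 min, and the ribosomal protein genes stay between -0.11 and 0.12.

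The similarity between genes was measured by the correlation of their 13 values, as a description, since all pairs share the same arrays. The median Pearson r over the 1275 pairs of the 51 genes was 0.68, and 1243 pairs were positive, while the median over all gene pairs was 0.01. With the mean of each array set removed the median over the pairs was 0.69, and over the 9 arrays from 40 to 120 min it was 0.43. Against the mean profile of the other 50 genes the median r was 0.82, and 47 of the 51 genes were above 0.5. RPF1, a factor that binds the early 60S precursor, had the highest r (0.96). The 4 genes under 0.5, and RPF1, were chosen after their values were seen: the 4 were NOP7 (0.49), NOP56 (0.46), GAR1 (0.37) and NOP13 (0.01).

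A fit across all genes asked whether a gene followed a 60 min cycle, and whether the arrested culture departed from that cycle. The model, fitted with limma, held a 60 min cosine and sine beside a term for the array set. Adjusted p-values are Benjamini-Hochberg values over all genes tested, and the threshold was 0.05. Errors are standard errors (SE) from the residuals around the fitted curve, since there are no replicates.

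The fitted 60 min curves of all 51 genes had their peaks close together, but 1 gene passed the test. That gene was HAS1, and the background was 5.47% of the 6183 genes tested. At an unadjusted p under 0.05 there were 19 of the 51 genes, or 37.3%, against 21.2% of all genes tested. The fitted peak fell between 40 and 60 min in all 51 genes, where 41.9% of all genes had their peak. The circular mean of the peaks was 48.9 min with an SD of 3.1 min over genes. With quantile-normalized arrays 50 of the 51 peaks fell there (42.0% of all genes). Where the fitted size is below its SE, as in NOP13 and NOP56, the peak time is poorly determined. The median fitted peak-to-trough size was 0.40 log2 units, with quartiles of 0.34 and 0.51, and the median over all genes was 0.25.

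HAS1 (YMR290C), a DEAD-box helicase needed for both subunits, gave -0.23, -0.91, -0.81, -0.57, -0.19, -0.17, -0.47, -0.58, -0.65, -0.38, -0.19, -0.17 and -0.20 from 0 to 120 min. Both lows, near 10 min and near 80 min, are visible in this gene, and from 100 to 120 min it was near its 40 min level. The fitted size was 0.60 ± 0.12 log2 units (SE), or 1.51-fold, with a peak at 47.1 min and an adjusted p of 0.0311 in limma. The call was lost without the 20, 30, 40, 50, 70, 80, 100 or 110 min array, and also on the 40 to 120 min arrays alone. With quantile-normalized arrays (background 8.83%) 6 genes were called, namely ENP1, ERB1, HAS1, NOP15, RPF2 and RRP12.

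**Figure D3:**
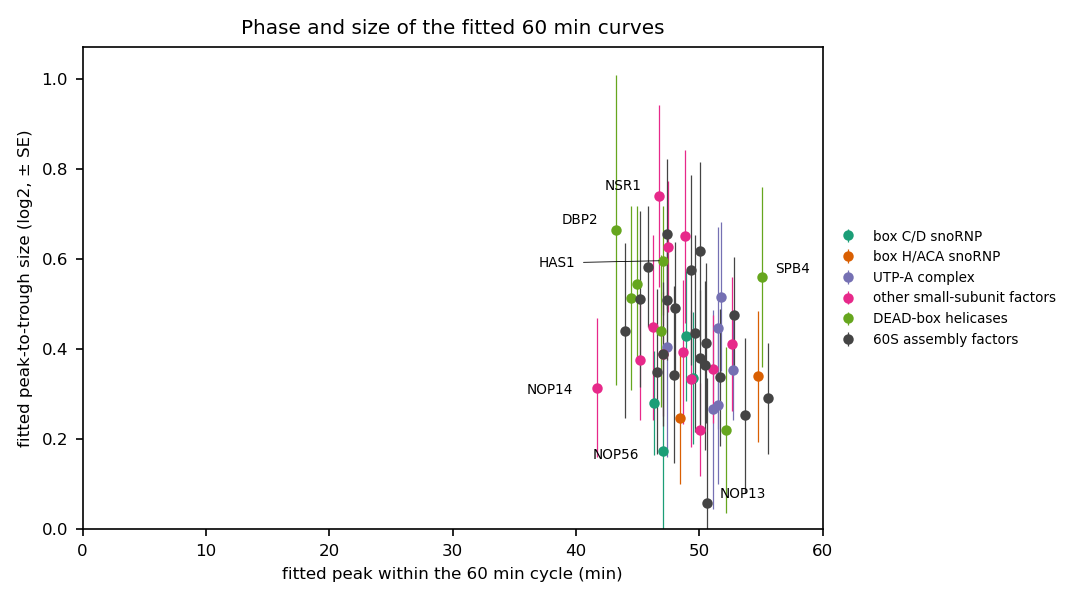
Fitted peak time within the 60 min cycle (horizontal axis, min) against fitted peak-to-trough size (vertical axis, log2 units, bars ± SE from the fit) for the 51 genes, coloured by role. All points lie between 40 and 60 min, with HAS1 at 47.1 min and 0.60, NSR1 the highest at 0.74 and NOP13 the lowest at 0.06.

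The other genes with the largest fitted sizes did not pass the test. NSR1 (YGR159C), the yeast relative of nucleolin, gave -0.31, -1.36, -1.09, -0.93, -0.06, -0.31, -0.44, -0.76, -0.95, -0.68, -0.44, -0.58 and -0.81 from 0 to 120 min. Its highest value was at 40 min and its second low at 80 min was clear of the values on either side. The fitted size was 0.74 ± 0.20 log2 units (limma adjusted p of 0.106). RRP12 (YPL012W), an export factor of the pre-ribosomal subunits, gave -0.37, -1.24, -0.97, -0.92, -0.44, -0.50, -0.69, -0.84, -0.96, -0.76, -0.58, -0.34 and -0.79, with a fitted size of 0.63 ± 0.15 (adjusted p of 0.0555). ERB1 (YMR049C), which acts with NOP7 and YTM1 in one complex on the 60S precursor, gave -0.34, -1.08, -0.76, -0.66, -0.44, -0.54, -0.66, -0.87, -1.04, -0.76, -0.43, -0.63 and -0.75, with a fitted size of 0.58 ± 0.13 (adjusted p of 0.0525). In ERB1 the low at 80 min was almost as deep as the one at 10 min.

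ENP1 (YBR247C), needed for 40S maturation, had a fitted size of 0.65 ± 0.19 log2 units (adjusted p of 0.135), and its values were -0.11, -1.29, -0.79, -0.90, -0.49, -0.44, -0.71, -0.76, -1.03, -0.89, -0.48, -0.59 and -0.67. RPF2 (YKR081C), which brings the 5S RNA particle to the 60S precursor, had a fitted size of 0.66 ± 0.17 (adjusted p of 0.0788), and NOP15, a 60S assembly factor, one of 0.62 ± 0.20 (adjusted p of 0.166). DBP2 had a fitted size of 0.67 ± 0.35 (adjusted p of 0.452). At the other end were UTP22, a small-subunit factor, at 0.22 ± 0.10, DBP9 at 0.22 ± 0.18, NOP56 at 0.17 ± 0.21 and NOP13 at 0.06 ± 0.28 log2 units.

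The arrested culture departed upwards from the cycle curve. At 0 min 18 of the 51 genes were higher than their fitted curve at an adjusted p under 0.05 (background 3.14% of 6153 genes), and 0 were lower (background 2.08%). At an unadjusted p under 0.05 in limma 35 were higher (10.4% of all genes) and 0 lower (8.73% of all genes). The median deviation of the 51 genes was 0.58 log2 units, against -0.003 over all genes, and 49 were positive. That median was 0.26 with quantile-normalized arrays, where 45 were positive, and 0.39 without the array set. The calls at 0 min rest on 1 array, and their number changed with the arrays and terms in the fit. The number was 1 with quantile-normalized arrays (background 0.796%) and 1 with time as a straight line instead of the array set. It was 4 without the array set and 8 without the 10 min array. Among these alternatives, the share of all genes called is given only for quantile-normalized arrays. DBP2, DBP9, EBP2, MAK16, NMD3, NOG1 and UTP10 were called in all 12 fits that left out 1 of the other arrays.

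**Figure D4:**
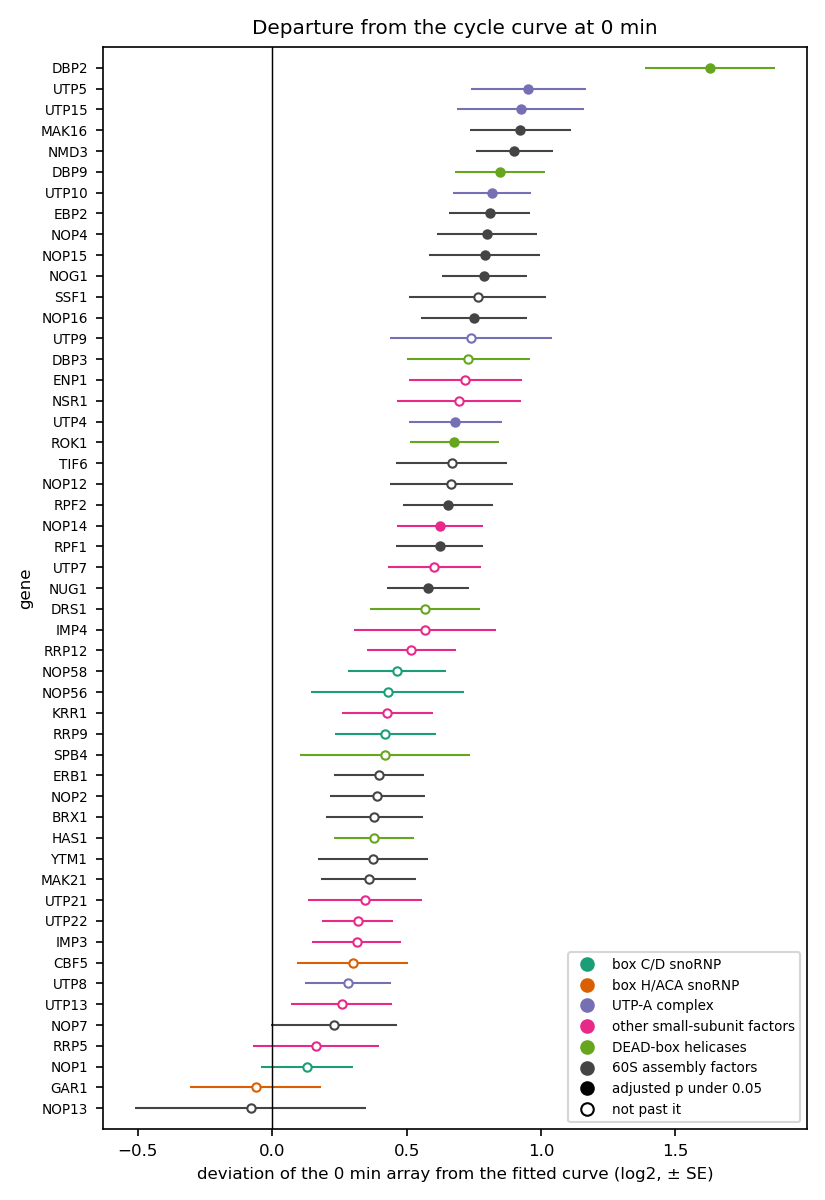
Deviation of the 0 min array from the fitted 60 min curve (horizontal axis, log2 units, bars ± SE from the fit) for each of the 51 genes, sorted by size and coloured by role. The 18 filled points passed an adjusted p of 0.05, DBP2 stands alone at 1.63, and GAR1 and NOP13 are the 2 points left of 0.

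Among the snoRNP proteins no gene was called at 0 min. The box C/D snoRNPs guide methylation of ribosomal RNA, and their 4 genes here were NOP1 (the methyltransferase fibrillarin), NOP56, NOP58 and RRP9, a protein of the U3 particle. Their median deviation at 0 min was 0.42 log2 units, and the deviations that did not pass the test ran from 0.13 for NOP1 to 0.47 for NOP58. NOP56 (YLR197W) gave -0.32, -0.64, -0.70, -0.79, -0.55, -0.52, -1.07, -0.41, -0.87, -0.60, -0.30, -0.82 and -0.54 from 0 to 120 min. Its lowest value was at 60 min, and high and low values alternated from 50 to 80 min. The values then rose to 100 min and were low again at 110 min. The box H/ACA snoRNPs guide pseudouridylation, and of their 2 genes CBF5, the pseudouridine synthase, deviated by 0.30 ± 0.21 and GAR1 by -0.06 ± 0.24.

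The UTP-A complex, which binds the start of the precursor RNA first, had 4 of 6 genes higher at 0 min (background 3.14%). The median deviation was 0.78 log2 units. Of these calls, 1 (UTP10) was kept in all 12 fits that left out another array. UTP10 (YJL109C) gave 0.07 at 0 min, then -0.78, -0.74, -0.64, -0.13, -0.27, -0.38, -0.25, -0.29, -0.33, -0.24, -0.35 and -0.24 from 10 to 120 min. After 40 min its level was nearly flat, and its 0 min value was the only one above 0. The deviation was 0.82 ± 0.14 (1.76-fold, limma adjusted p of 0.00738), and UTP10 was the gene still called with quantile-normalized arrays.

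UTP5 (YDR398W) gave -0.12 at 0 min, then -1.25, -0.77, -0.96, -0.46, -0.64, -0.79, -0.61, -0.59, -0.88, -0.58, -0.71 and -0.67, and its deviation was 0.95 ± 0.21 (1.94-fold, limma adjusted p of 0.0246). UTP15 (YMR093W) gave 0.03 at 0 min, then -1.24, -0.70, -0.93, -0.52, -0.55, -0.76, -0.46, -0.79, -0.81, -0.48, -0.47 and -0.55, and deviated by 0.92 ± 0.24 (adjusted p of 0.0438). In both genes 0 min was the highest and 10 min the lowest of the 13 values. UTP4 also passed, with 0.68 ± 0.17 (adjusted p of 0.0438). UTP4 and UTP15 were each called in 3 of the 12 fits without another array. UTP9 (0.74 ± 0.30) and UTP8 (0.28 ± 0.16) did not pass.

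The 12 other small-subunit factors had 1 call higher at 0 min (background 3.14%), NOP14, and a median deviation of 0.47. The 0 min value of NOP14 lay 0.62 ± 0.16 log2 units above its fitted curve (limma adjusted p of 0.0438, called in 4 of the 12 fits without another array). NOP14 (YDL148C) gave -0.37 at 0 min, then -0.97, -0.94, -0.64, -0.41, -0.54, -0.89, -0.82, -0.54, -0.55, -0.63, -0.67 and -0.72, so its value at 40 min was close to that at 0 min. The other 11 were ENP1, IMP3, IMP4, KRR1, NSR1, RRP5, RRP12, UTP7, UTP13, UTP21 and UTP22, and all had positive deviations, from 0.16 for RRP5 to 0.72 for ENP1. UTP22 was among the flattest genes with the shared shape. It gave 0.06, -0.39, -0.30, -0.23, -0.18, -0.19, -0.25, -0.19, -0.34, -0.26, -0.16, -0.15 and -0.18, and its r with the mean of the other genes was 0.89.

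Among the 7 DEAD-box helicases, which remodel RNA in the precursor particles, 3 were higher at 0 min (background 3.14%). The median deviation was 0.68 log2 units. DBP2 (YNL112W), which also acts on messenger RNA, had the widest swing of the 51 genes, with -0.57 at 0 min, then -2.06, -1.97, -1.66, -0.76, -0.85, -1.62, -1.07, -1.21, -0.50, -0.63, -1.05 and -1.21 from 10 to 120 min. At 10 min it was 4.18-fold below the asynchronous culture. Its 60 min value lay well below those at 50 and 70 min, and the 90 min value was its highest. The deviation at 0 min was 1.63 ± 0.24 (3.09-fold, limma adjusted p of 0.00297), and it ranged from 0.80 without the array set to 1.85 over the other fits.

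DBP9 (YLR276C) gave 0.03 at 0 min, then -0.81, -0.73, -0.72, -0.22, -0.37, -0.33, -0.14, -0.37, -0.21, -0.31, -0.17 and -0.48, and deviated by 0.85 ± 0.17 (1.80-fold, limma adjusted p of 0.0135). Its mean of 70 and 80 min differed from its mean of 100 and 110 min by -0.01, and that of UTP10 by 0.02, so neither had a second low on that measure. ROK1, a helicase of the 40S pathway, deviated by 0.68 ± 0.16 (adjusted p of 0.0348). DBP3, DRS1, HAS1 and SPB4 did not pass, with deviations of 0.38 for HAS1 to 0.73 for DBP3.

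SPB4 (YFL002C), chosen after its values were seen, stood out at a single array: it gave 0.37 at 60 min, between -0.48 at 50 min and -0.58 at 70 min. RRP5, a factor of both subunits that was chosen in the same way, gave 0.02 at 60 min, between -0.30 and -0.66. With 1 array per time point such single values have no replicate to be set against.

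The 60S assembly factors supplied 10 of the 18 calls, from 20 genes (background 3.14%), with a median deviation of 0.66 log2 units. Of the 10, 4 (EBP2, MAK16, NMD3 and NOG1) were called in all 12 fits without another array. NMD3 (YHR170W), the export adaptor of the 60S subunit, gave -0.24 at 0 min, then -1.23, -1.10, -0.88, -0.57, -0.69, -0.89, -0.87, -0.93, -0.56, -0.42, -0.70 and -0.80. The level recovered in steps from 10 to 40 min and was highest at 0 min, with 100 min next. Its deviation at 0 min was 0.90 ± 0.14 (1.87-fold, limma adjusted p of 0.00409). NMD3 was the one gene called at 0 min when a straight line in time replaced the array set.

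MAK16 (YAL025C) gave -0.12 at 0 min, then -1.24, -1.03, -1.12, -0.51, -0.73, -0.81, -0.93, -1.13, -0.95, -0.70, -0.89 and -0.95, and deviated by 0.92 ± 0.19 (1.89-fold, limma adjusted p of 0.0164). EBP2 (YKL172W) gave -0.11 at 0 min, then -0.98, -1.08, -0.84, -0.48, -0.48, -0.55, -0.52, -0.69, -0.50, -0.32, -0.54 and -0.46, and deviated by 0.81 ± 0.15 (adjusted p of 0.0109). In MAK16 the second low at 80 min came near the depth of the first, whereas in EBP2 all values from 40 min on stayed above those of 10 to 30 min.

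NOG1 (YPL093W), a GTPase of the 60S precursor, deviated by 0.79 ± 0.16 (limma adjusted p of 0.0149), and its values were -0.34, -1.34, -0.94, -0.93, -0.54, -0.68, -0.79, -0.84, -0.79, -0.75, -0.66, -0.74 and -0.79. From 60 to 120 min NOG1 stayed between -0.84 and -0.66. NOP4 (YPL043W), an RNA-binding factor, was low on every array, with -0.61 at 0 min, then -1.56, -1.27, -1.09, -0.87, -0.90, -1.35, -1.37, -1.18, -0.92, -1.17, -1.14 and -1.13, and deviated by 0.80 ± 0.19 (adjusted p of 0.0275). NOP15, NOP16, NUG1, RPF1 and RPF2 also passed, with deviations of 0.79, 0.75, 0.58, 0.62 and 0.65 and limma adjusted p-values of 0.0463, 0.0473, 0.0477, 0.0473 and 0.0443. These 5 were the least stable calls: NOP15 and RPF2 were called in 2 and NOP16, NUG1 and RPF1 in 1 of the 12 fits without another array, and none with quantile-normalized arrays. NUG1 is a GTPase like NOG1, and NOP16 belongs to the precursor particle of the 60S subunit.

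The 10 genes of the 60S group that did not pass at 0 min were BRX1, ERB1, MAK21, NOP2, NOP7, NOP12, NOP13, SSF1, TIF6 and YTM1. Their deviations ran from -0.08 for NOP13 to 0.76 for SSF1, whose close paralog SSF2 may share its probe. NOP2, an RNA methyltransferase of the large subunit, deviated by 0.39 ± 0.18, and TIF6, which keeps the subunits from joining early, by 0.67 ± 0.21.

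NOP13 (YNL175C), a nucleolar RNA-binding protein, had the lowest correlation with the mean profile of the other 50 genes (r = 0.01). It gave 0.12, 0.19, 0.15, 0.08, 0.53, 0.51, 0.05, -0.04, 0.13, -0.06, -0.71, -0.01 and -0.31 from 0 to 120 min. Its values were above 0 up to 60 min. Those at 10, 20 and 30 min lay below those at 40 and 50 min. The 10 and 20 min values, however, lay above the 0 min value. Its lowest value, like those of GAR1 and NOP7, was at 100 min. The median of the 51 genes had one of its higher points there.

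**Figure D5:**
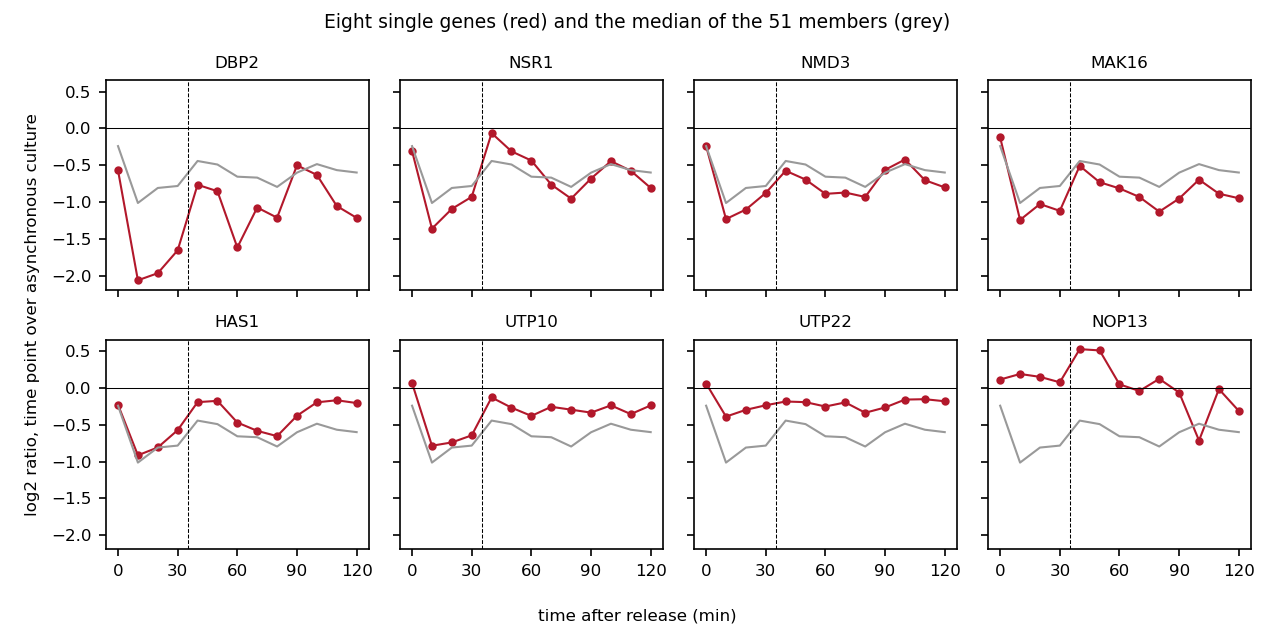
Log2 ratio of the time point over the asynchronous culture (vertical axis) against time after release in min (horizontal axis) for 8 single genes (red points and lines, 1 array per point), with the median of the 51 genes in grey. DBP2 has the widest swing, from -0.50 at 90 min to -2.06 at 10 min, UTP22 is nearly flat at -0.39 to 0.06, and NOP13 does not follow the grey line. The dashed lines separate the 2 array sets.

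The first sample after release was then set against the same curve. At 10 min 0 of the 51 genes were higher (background 1.37% of 6047 genes) and 0 were lower (background 0.86%) at an adjusted p under 0.05. At an unadjusted p under 0.05 in limma 10 were lower (6.5% of all genes) and 0 higher (6.81%), and the median deviation was -0.31 log2 units. This median was -0.13 with 0 and 10 min indicators in one fit, and also -0.13 without the 0 min array. With quantile-normalized arrays the median deviation was -0.03, and 0 were lower at an unadjusted p under 0.05 (1.6% of all genes). IMP4 (YNL075W), which works with IMP3 in the processome, came nearest: it gave -1.25 at 10 min, between -0.21 at 0 min and -0.43 at 20 min, and deviated by -0.76 ± 0.18 (adjusted p of 0.0551). UTP15 deviated by -0.77 ± 0.24 (adjusted p of 0.137).

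Between the array sets, taken as 0 to 30 min minus 40 to 120 min beside the 60 min curve, 0 genes were higher (background 2.52%) and 0 lower (background 2.39%) at an adjusted p under 0.05. At an unadjusted p under 0.05 in limma 2 were higher (10.5% of all genes) and 1 lower (10.7%), and the median difference of the 51 genes was 0.004 log2 units. The 0 min array belongs to the first set. Without the 0 min array 5 genes were lower in the first set, and the median difference was -0.19. The share of all genes called in that fit is not given here. With quantile-normalized arrays 4 of the 51 were higher, beside 105 of the 6183 genes tested. The median difference was then 0.18, against 0.01 over all genes. At an unadjusted p under 0.05 in limma 15 were higher on that scale (29.4%, against 11.5% of all genes).

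Other genes of the ribosome pathway were compared through lists written from general knowledge. The 89 other ribosome biogenesis factors had nearly the same course, with medians of -0.17 at 0 min, -1.01 at 10 min, -0.37 at 40 min, -0.77 at 80 min and -0.50 at 100 min. At 0 min 16 of 89 (18.0%) were higher than their curve and 0 lower, beside 3.14% and 2.08% of all genes, with a median deviation of 0.60 log2 units. The largest called deviations were 1.34 ± 0.24 for RSA4, 1.13 ± 0.21 for NOG2 and 1.10 ± 0.19 for DBP7, all 60S assembly factors, with limma adjusted p-values of 0.00861, 0.0116 and 0.00708. RRS1 and REA1, which act in 60S assembly, were the 2 of 89 (2.25%, under the 5.47% of all genes) called periodic, with sizes of 0.66 ± 0.15 and 0.64 ± 0.11. At 10 min 2 of the 86 tested were lower (background 0.86%). These were TSR1, a 40S factor, and the helicase DBP8, with deviations of -1.32 ± 0.25 and -0.94 ± 0.21. RRP17, 1 of 89 (background 2.39%), was lower in the first array set, with a difference of -0.73 ± 0.13. With quantile-normalized arrays 11 of the 89 (12.4%, against 8.83% of all genes) were called periodic and 1 higher at 0 min (1.12%, against 0.796%), and the median deviation at 0 min was 0.26. On that scale 0 were lower at 10 min, beside 9 of 6047 genes tested. In the first array set 8 of the 89 were then higher and 1 lower, beside 105 and 97 of 6183 genes tested.

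The polymerases that make ribosomal RNA and transfer RNA had the same shape at higher levels. The median of the 10 RNA polymerase I genes was -0.08 at 0 min, -0.78 at 10 min and -0.23 at 40 min, and that of the 10 RNA polymerase III genes 0.05, -0.58 and -0.11. No RNA polymerase I gene was called at 0 min in limma (background 3.14% higher). At an unadjusted p under 0.05 in limma 5 of 10 were higher (10.4% of all genes). Of the 10 RNA polymerase III genes 1 was called, RPC17, at 0.80 ± 0.15 (limma adjusted p of 0.0116). All 10 deviations at 0 min were positive in each list, beside 3050 of 6153 over all genes. The fitted peaks of both lists lay between 40 and 60 min in 10 of 10 genes (41.9% of all genes).

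The ribosomal protein genes did not have this course. Over the 138 genes for cytosolic ribosomal proteins the median ran from -0.11 at 30 min to 0.12 at 110 min, with 0.04 at 0 min and 0.03 at 10 min. The 51 biogenesis genes at the same 2 time points had medians of -0.24 and -1.01. None of the 138 was called periodic or at 0 min in limma (2 periodic and 0 at 0 min at an unadjusted p under 0.05), and the median fitted size was 0.12 log2 units. RPL41A, 1 of 138 (background 2.39%), was lower in the first array set, with a difference of -0.41 ± 0.10. Many ribosomal protein genes exist in near-identical pairs, so single values within that list may mix the copies.

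Of 14 regulators, 1 was called periodic (background 5.47%) and 1 lower at 0 min (background 2.08%). FHL1, a factor of ribosomal protein gene promoters, was the periodic one (0.64 ± 0.14 log2 units, peak at 32.3 min, limma adjusted p of 0.0478). ABF1, a general promoter-binding factor with a value on 12 arrays, was lower at 0 min (-0.73 ± 0.19, limma adjusted p of 0.0473), a call lost with quantile-normalized arrays. TOD6, a repressor of biogenesis genes, gave -0.21, -1.76, -0.80, -1.51, -0.75, -0.78, -1.08, -0.97, -1.69, -0.68, -0.61, -0.84 and -1.17 from 0 to 120 min. It correlated with the mean profile of the 51 genes at r = 0.79, and its deviation at 0 min was 1.13 ± 0.40 (adjusted p of 0.136). DOT6, its paralog, gave -0.04 at 0 min and -0.49 at 10 min and lay between -0.01 and 0.45 afterwards. SFP1, an activator, gave -0.16 at 0 min and -0.69 at 10 min (r = 0.55), and STB3, which binds a promoter element of these genes, gave -0.22 and 0.18 at the same times (r = -0.64). None of TOD6, DOT6, SFP1 and STB3 passed a test.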

How the data were processed

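Values came from 1 table of 13 two-colour arrays, deposited by the authors as log10 ratios. The sources used here give no normalization, scale or direction: log10 was read from the values, which stop at a size of 2. Values of size 1.99 or more (272 of 80493) were treated as missing, and ratios were multiplied to log2. The 12 control rows were left out, and genes needed values on 11 arrays. No genome build is named, and RefSeq's gene table supplied names (5703 of 6205) and neighbours only.

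The fits used limma 3.58.1 in R 4.3.3 (lmFit, eBayes) with array set, cosine and sine of 60 min, and an indicator for 0 or 10 min. There were 9 residual degrees of freedom, or 8 with an indicator. The code was tested on simulated data. Standard errors measure the scatter of single arrays around a curve, and the number of arrays limits precision.

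Genes described in detail were those called in a fit, the 8 largest and 4 smallest fitted sizes, the 8 largest deviations at 0 min, 4 regulators, up to 3 called genes per list and fit, the 6 genes most like the mean profile, and 6 landmarks. The 51 genes, the lists and the tests were chosen with earlier results of these data known. Alternatives covered normalization, array set, period, curve shape, missing values, shrinkage and leaving out each array.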

Additional observations from a re-analysis of the deposited data

How the results depend on the processing

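No paired analysis was possible because each time point has 1 array. The count of genes called periodic (1) was 6 with quantile-normalized arrays, 5 without the array set, 5 with a straight line in time instead, and 0 on the 40 to 120 min arrays, at periods of 55, 65 and 70 min, with a second harmonic and without shrinkage. It was 0 to 3 when 1 array was left out: 3 without 0 min (DBP2, HAS1, NMD3) or 10 min (ERB1, HAS1, RRP12), 0 without 20, 30, 40, 50, 70, 80 or 100 min, and BRX1 in place of HAS1 without 110 min. The count higher at 0 min (18) was 1 with quantile-normalized arrays, 4 without the array set, 1 with a straight line in time instead, 8 with 0 and 10 min indicators in one fit, 8 at a period of 55 min, 28 at a period of 70 min, 10 with a second harmonic, 9 without shrinkage, and 8 to 15 when 1 array was left out. The lowest, 8, was without 10 min, with 9 without 50, 90 or 110 min, 10 without 30 or 100 min and 11 without 40, 70 or 80 min. No alternative gave a member lower at 0 min. With no curve, the median difference of 0 min from the mean of 60 and 120 min was 0.36, and 32 of the 51 genes (62.7%) lay above by more than the 60 and 120 min values differed, against 27.9% of all genes, with 0 below (25.3% of all genes). The count lower at 10 min (0) was 2 at a period of 55 min, 1 with values at the limit kept, and 0 to 1 when 1 array was left out (1 without 30 min). For the array sets, the count higher (0) was 4 with quantile-normalized arrays, beside 105 of the 6183 genes tested. The count lower (0) was 0 to 5 when 1 array was left out (5 without 0 min). The share of all genes called is given here only for quantile-normalized arrays and for the comparison with no curve. The counts under the other alternatives therefore have no background to be set against. The causes were not tested. Over the named genes, medians and lists, 2748 of the recomputed values kept their sign and side of the threshold or moved little, 289 no longer passed it, 41 newly passed it and 11 values without a test moved. Another 52 changed sign without being called, among them the deviation of NOP13 at 0 min in 3 fits and the median array set difference in 8, and no called value changed sign. The search for promoter motifs was not run, because no promoter sequence was used here.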

Other observations

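Outside the lists, the genes whose 13 values were most like the mean profile of the 51 genes, among 5567 compared (median r of 0.05), were MRD1 (r = 0.95), TYW3 (0.94), NRP1 (0.94), PUS1 (0.93), UBP10 (0.93) and MTR4 (0.93). MRD1, needed for processing of the ribosomal RNA precursor, gave -0.03 at 0 min, -1.19 at 10 min, -0.40 at 40 min, -1.01 at 80 min and -0.62 at 100 min, and deviated at 0 min by 0.88 ± 0.20 (limma adjusted p of 0.0241). NRP1 deviated by 0.86 ± 0.18 (limma adjusted p of 0.0189). PUS1, a pseudouridine synthase of transfer RNA, and TYW3, an enzyme of transfer RNA modification, gave 10 min values of -0.89 and -0.29.

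A neighbouring gene in RefSeq's order was another of the 51 or one of the 89 other factors for 7 of the 51 genes (13.7%), against 270 of 5686 protein-coding genes of the table (4.75%). UTP9 and RIX1 correlated at r = 0.85 over the 13 arrays, NMD3 and DBP8 at 0.82, SSF1 and RRP3 at 0.67, GAR1 and RPF1 at 0.36, and NOP56 and PWP1 at -0.11. UTP13 lies next to RSA3, for which no correlation was computed.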
